A study of Homo sapiens with 6 samples.

Results

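The genes described here are 44 interferon-stimulated genes, chosen by name as sensors, transcription factors and effectors of the interferon response. All 44 were found among the 34234 gene symbols of the deposited count table. Poly-A RNA was sequenced from HCCLM3, an established human liver cancer line used as a model of metastasis. The line had received lentivirus with a short hairpin RNA against ATXN7L3 (shATXN7L3, 3 libraries) or with a control hairpin (shcontrol, 3 libraries), in DMEM with serum and with no added interferon named in the labels. ATXN7L3 is an adaptor of the deubiquitinase module of the SAGA coactivator complex, which removes ubiquitin from histone H2B. The labels name 1 cell line and do not say how many hairpin sequences were used or whether replicates came from separate cultures. If they did not, the p-values describe technical spread alone.

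Interferons bind cell surface receptors and, through the kinases JAK1 and TYK2, activate STAT proteins. IRF9 and STAT2 are parts of the factor ISGF3, which binds interferon-stimulated response elements in promoters. The genes switched on in this way encode sensors of viral RNA, the factors that carry the response forward, and effectors that degrade viral RNA, block its translation or stop virus entry. Hepatocytes express the pathway and respond to interferon alpha and interferon lambda.

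The promoters of 5 members are shown because these genes had the highest and the lowest log2 fold changes among called members in the RefSeq promoter table. Each window runs from 250 bases before to 50 bases after an annotated start on GRCh38.p14, and 34 of the 44 members had at least 1 window. Capitals mark matches to the core of the response element, which is GAAA, any 2 bases and GAAA, searched on both strands. They also mark matches to the core of the site bound by STAT dimers, which is TTC, any 3 bases and GAA and reads the same on both strands.
SAMD9 (chr7:93117930-93118229, minus strand): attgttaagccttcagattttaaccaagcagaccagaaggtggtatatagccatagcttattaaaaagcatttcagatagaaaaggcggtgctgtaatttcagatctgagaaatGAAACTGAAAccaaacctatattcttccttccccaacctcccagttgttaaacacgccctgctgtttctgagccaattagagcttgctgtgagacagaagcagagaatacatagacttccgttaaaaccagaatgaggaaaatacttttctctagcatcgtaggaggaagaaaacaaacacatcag
ISG20 (chr15:88638766-88639065, plus strand): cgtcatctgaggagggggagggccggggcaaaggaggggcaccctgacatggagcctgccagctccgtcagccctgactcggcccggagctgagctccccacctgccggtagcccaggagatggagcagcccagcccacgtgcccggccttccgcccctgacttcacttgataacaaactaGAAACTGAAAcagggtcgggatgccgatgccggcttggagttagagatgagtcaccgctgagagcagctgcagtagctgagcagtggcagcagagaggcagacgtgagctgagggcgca
IRF9 (chr14:24161015-24161314, plus strand): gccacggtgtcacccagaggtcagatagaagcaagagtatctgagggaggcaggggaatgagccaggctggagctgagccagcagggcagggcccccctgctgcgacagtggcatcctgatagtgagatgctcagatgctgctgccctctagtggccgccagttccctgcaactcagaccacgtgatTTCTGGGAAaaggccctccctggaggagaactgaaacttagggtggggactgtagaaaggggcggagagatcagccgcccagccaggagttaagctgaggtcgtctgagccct
OAS1 (chr12:112906712-112907011, plus strand): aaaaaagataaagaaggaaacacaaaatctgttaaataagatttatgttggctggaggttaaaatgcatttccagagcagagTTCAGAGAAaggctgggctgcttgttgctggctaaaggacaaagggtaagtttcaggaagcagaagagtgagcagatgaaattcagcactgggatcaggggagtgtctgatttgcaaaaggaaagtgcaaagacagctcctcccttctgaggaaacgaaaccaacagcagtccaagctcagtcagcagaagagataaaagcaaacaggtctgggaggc
OAS3 (chr12:112938224-112938523, plus strand): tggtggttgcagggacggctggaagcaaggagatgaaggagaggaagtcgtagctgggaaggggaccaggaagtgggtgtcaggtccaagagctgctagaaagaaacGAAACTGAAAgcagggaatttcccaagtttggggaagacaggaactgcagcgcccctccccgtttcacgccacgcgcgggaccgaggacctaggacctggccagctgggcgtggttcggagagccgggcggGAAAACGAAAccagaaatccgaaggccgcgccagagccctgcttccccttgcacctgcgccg

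SAMD9 and ISG20 each held the 10 bases GAAACTGAAA, and OAS3 held the same 10 bases and GAAAACGAAA. The IRF9 and OAS1 windows held an exact match to the STAT site core only. The OAS1 window also held ggaaacgaaa, which differs from the response element core at 1 base and is not in capitals. DTX3L and PARP9 are transcribed in opposite directions, and 1 copy of GAAACTGAAA (chr3:122564332-122564341, plus strand of GRCh38.p14) lay in windows of both genes. Of the 34 members with a window, 23 (67.6%) held the response element core, against 4.38% of all 27305 genes in the promoter table. The STAT site core was held by 9 of the 34 members (26.5%), against 9.38% of all genes. The response element core was found in 6 of 7 members that were higher in shATXN7L3, in 1 of 2 that were lower, in 9 of 17 that were tested and not called, and in 7 of 8 that were too low to test. Only exact matches were counted, so a gene counted without the core can still hold a close variant of it. These matches are descriptions of the letters and do not show binding.

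Library totals were 22757031 to 23915783 counts in shATXN7L3 and 22376867 to 23033763 counts in shcontrol. ATXN7L3 itself stood at 20.6, 20.5 and 19.5 CPM (counts per 1000000 counts, scaled between libraries by the TMM method) in shATXN7L3, against 36.4, 37.5 and 37.5 CPM in shcontrol. Its log2 fold change was -0.88 ± 0.056 (SE; edgeR adjusted p = 6.69e-10), so the target was reduced and not absent. Of 7 hepatocyte and hepatoma markers, all were detected in both groups and all 7 were lower in shATXN7L3, among them ALB (-1.44) and KRT8 (-0.16). Of 7 leukocyte markers, 6 were too low to test and ITGAM was higher (0.85). The summed level of the leukocyte markers was 5.33 to 5.94 CPM in shATXN7L3 and 2.85 to 4.17 CPM in shcontrol. Most of it was ITGAM, at 4.39, 4.81 and 4.56 CPM in shATXN7L3 and 2.27, 2.16 and 3.16 CPM in shcontrol. NKG7, the highest of the other 6, had a mean of 0.350 CPM in shATXN7L3 and 0.297 CPM in shcontrol. CD3E had 0 counts in every shATXN7L3 library and 2, 0 and 0 in shcontrol. The part of these markers in the results below was not tested. In bulk RNA, fewer cells that express a gene and less RNA per cell cannot be told apart.

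The 44 members spanned a wide range of levels, compared here per gene length in TPM (a length-scaled share of all transcripts, mean of 3 libraries). ADAR, which edits adenosine to inosine in double-stranded RNA, was the highest at 78.7 TPM in shATXN7L3 and 79.1 TPM in shcontrol. IFITM3, IRF3, OAS1, EIF2AK2 and OAS3 were the other members at 10 TPM or more in both groups. At the other end, 15 members stayed under 1 TPM in both groups, among them the dynamin-like GTPases MX1 and MX2, RSAD2 (viperin), IFI44L, IFI27 and BST2 (tetherin). These are genes that interferon usually induces strongly.

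**Figure D1:**
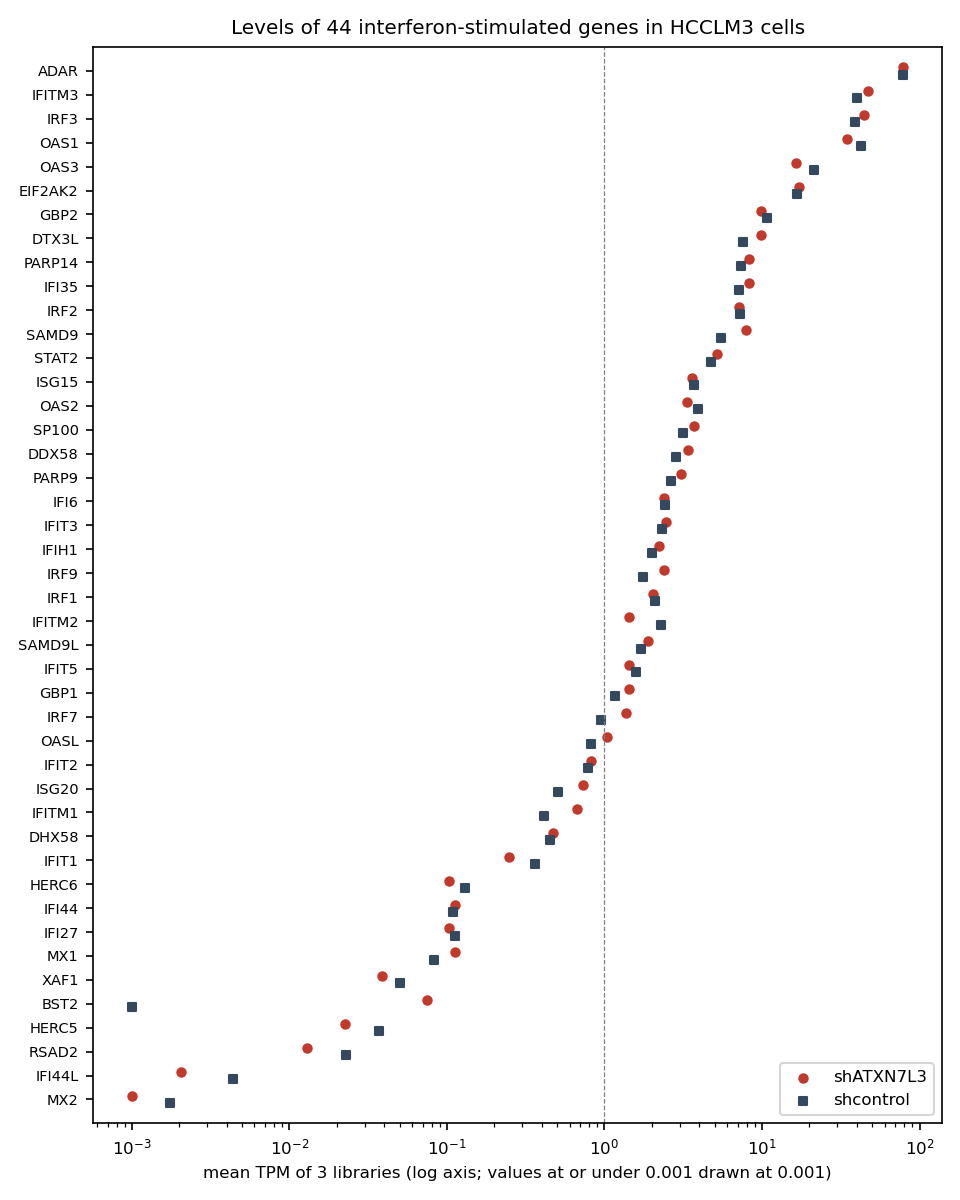
Mean TPM of the 44 members on a log axis, from highest at the top, with shATXN7L3 as circles and shcontrol as squares. The dashed line marks 1 TPM, and 15 members lie below it in both groups.

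Counts of the lowest members show how little was there. MX2 had 0 counts in each shATXN7L3 library and 0, 0 and 1 counts in the shcontrol libraries. IFI44L had 0, 0 and 1 counts in shATXN7L3 and 1, 0 and 1 in shcontrol. Both genes were at or next to 0 in both groups, where a count of 0 allows up to 3 counts, or 0.124 to 0.138 CPM depending on the library, for counting error only. BST2 had 0, 2 and 2 counts in shATXN7L3 and 0 in every shcontrol library, too few to compare the groups. RSAD2 had 0 to 2 counts per shATXN7L3 library and 1 to 3 per shcontrol library, and IFI27 had 5 to 9 in shATXN7L3 and 6 to 8 in shcontrol. HERC5, IFI44, IFITM1, RSAD2, IFI27, XAF1, MX2, BST2 and IFI44L, 9 members in all, did not pass the filter on low counts. Together they took 23 to 33 counts per library. They were not tested. In IFITM1 the counts of the groups did not overlap, as given below with the other IFITM genes.

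Of the 35 members tested, 9 were higher and 5 lower in shATXN7L3 (edgeR, Benjamini-Hochberg adjusted p under 0.05), and 21 did not pass. Among all 17935 tested genes, 24.2% were called, with 12.2% higher and 12% lower. Among members the called share was 40.0%, with 25.7% higher and 14.3% lower, and among tested protein-coding genes it was 28.8%. The differences were small: 0 of the 14 called members changed by 1 or more on the log2 scale, and the sizes ran from 0.15 (PARP14) to 0.70 (IFITM2). The median log2 fold change was 0.10 over the tested members and 0.01 over all tested genes. The groups did not overlap in 18 of the 35 members, with shATXN7L3 above in 12 and below in 6. Among all tested genes 38.3% did not overlap, 19.8% with shATXN7L3 above and 18.4% below. The summed level of the 44 members was 1265 to 1284 CPM in shATXN7L3 and 1250 to 1316 CPM in shcontrol, ranges that overlap.

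**Figure D2:**
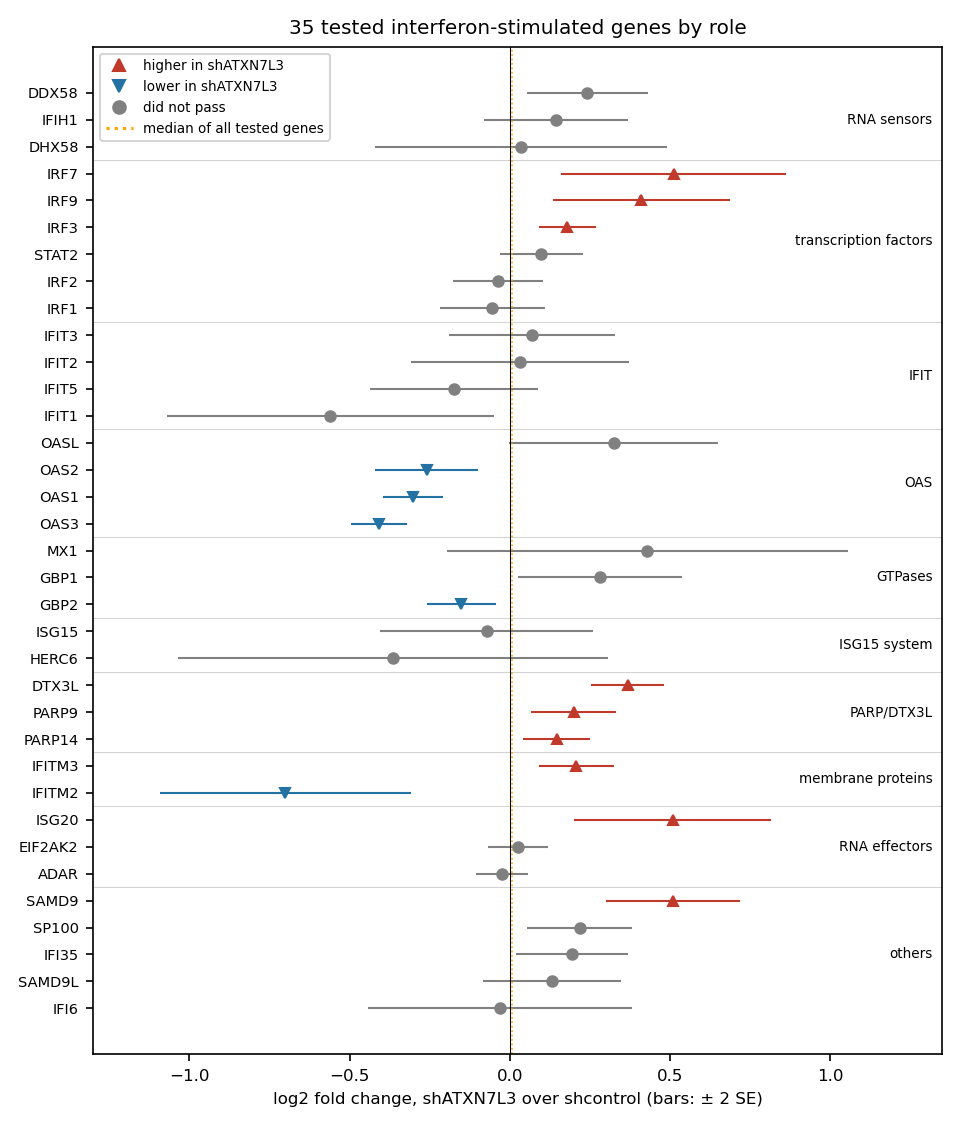
Log2 fold change of each tested member, shATXN7L3 over shcontrol, with bars of ± 2 SE, grouped by role and coloured by whether it passed the test (9 higher, 5 lower, 21 not passing). The dotted line is the median of all tested genes, 0.01.

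Only 4 of the 14 calls, IRF3, OAS1, OAS3 and DTX3L, held under all 14 alternatives tried, which include leaving out each library in turn. DESeq2 called 3 members higher and 3 lower. Leaving out 1 library gave 4 to 9 higher and 2 to 4 lower.

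The cytosolic RNA sensors came first in the order of the response and none of the 3 passed. DDX58 (RIG-I) stood at 9.25, 10.2 and 9.79 CPM in shATXN7L3 and 7.33, 8.24 and 9.14 CPM in shcontrol. All shATXN7L3 libraries lay above all shcontrol libraries, but the log2 fold change of 0.24 ± 0.095 missed the threshold (edgeR adjusted p = 0.0705). It passed with library size alone and without shcontrol replicate 3. IFIH1 (MDA5) had 0.14 ± 0.11, and DHX58 (LGP2), which modulates the other two, had 0.03 ± 0.23 at about 1 CPM, an interval too wide to show that it did not move.

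Among the 6 transcription factors, 3 rose, 0 fell and 3 did not pass. IRF3, a constitutively present factor that is activated by phosphorylation, stood at 111, 109 and 114 CPM in shATXN7L3 and 98.7, 96.1 and 100.5 CPM in shcontrol. Every shATXN7L3 library was above every shcontrol library, with log2 fold change 0.18 ± 0.044 (edgeR adjusted p = 0.00506). IRF3 lies on chromosome 19 (49659569 to 49665875, minus strand, GRCh38), and 19.3% of its exonic bases overlap BCL2L12 on the other strand. BCL2L12 leaned the same way but did not pass (0.13 ± 0.051, edgeR adjusted p = 0.065). Whether counting used strand is unknown, so the IRF3 value may hold some reads of BCL2L12.

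IRF7, the factor that amplifies type I interferon production, stood at 2.28, 2.53 and 2.34 CPM in shATXN7L3 and 1.91, 1.43 and 1.67 CPM in shcontrol. The groups did not overlap, and the log2 fold change was 0.51 ± 0.18 (edgeR adjusted p = 0.0392). IRF9, the DNA-binding subunit of ISGF3, stood at 4.99, 6.14 and 6.78 CPM in shATXN7L3 and 5.16, 3.64 and 4.66 CPM in shcontrol. Here shATXN7L3 replicate 1 lay below shcontrol replicate 1, and the log2 fold change was 0.41 ± 0.14 (edgeR adjusted p = 0.0359). Of the exonic bases of IRF9, 48.4% also belong to another annotated gene on the same strand, which was higher as well (0.28), and the counting could have split their reads. The IRF7 call ended without any 1 of the shATXN7L3 libraries or without shcontrol replicate 2 or 3 (edgeR adjusted p from 0.071 to 0.153) and with DESeq2 (0.175). The IRF9 call ended without shATXN7L3 replicate 2 (0.11) or 3 (0.187) or shcontrol replicate 2 (0.187), and with DESeq2 (0.0953).

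STAT2 did not pass, with 20.3, 21.0 and 21.4 CPM in shATXN7L3 and 18.6, 19.3 and 20.7 CPM in shcontrol (log2 fold change 0.10 ± 0.064). IRF1 and IRF2, an activator and its antagonist on overlapping sites, had log2 fold changes of -0.05 ± 0.083 and -0.04 ± 0.071.

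The OAS genes split. The 2'-5'-oligoadenylate synthetases make a messenger on double-stranded RNA that activates RNase L. OAS1, OAS3 and OAS2 lie next to each other on chromosome 12 (112906777 to 113011723, GRCh38) and all 3 fell. OAS3 stood at 89.5, 88.9 and 89.9 CPM in shATXN7L3 and 116, 118 and 122 CPM in shcontrol. The shATXN7L3 libraries sat close together and below every shcontrol library, with log2 fold change -0.41 ± 0.044 (edgeR adjusted p = 8.77e-07). OAS1 stood at 113, 117 and 112 CPM in shATXN7L3 and 139, 135 and 148 CPM in shcontrol (-0.30 ± 0.046, edgeR adjusted p = 6.84e-05). Again the groups did not overlap.

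OAS2 stood at 13.7, 14.48 and 13.3 CPM in shATXN7L3 and 17.6, 14.50 and 17.5 CPM in shcontrol (log2 fold change -0.26 ± 0.080, edgeR adjusted p = 0.0235). The groups were separated only narrowly, between replicate 2 of shATXN7L3 and replicate 2 of shcontrol. This call ended without shATXN7L3 replicate 1 (0.0745) or 3 (0.106), without shcontrol replicate 1 (0.0698) or 3 (0.0652), with scaling by library size alone (0.0694) and with DESeq2 (0.067). OASL, a paralogue without synthetase activity that lies elsewhere on chromosome 12, stood at 2.49, 2.28 and 2.47 CPM in shATXN7L3 and 2.04, 1.89 and 1.85 CPM in shcontrol. Its libraries lay above those of shcontrol, unlike the other OAS genes, but it did not pass (0.33 ± 0.16, edgeR adjusted p = 0.166).

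Of the 3 nearest tested genes before the OAS cluster and the 3 after it, with 1 inside, 3 were lower, 0 higher and 4 did not pass. Inside it, the antisense gene RP1-71H24.1 was lower (-0.31 ± 0.081, edgeR adjusted p = 0.00725). It overlaps 1.86% of the exonic bases of OAS1 on the other strand, and whether counting used strand is unknown. RASAL1, a Ras GTPase-activating protein, and CFAP73 on the side of OAS2 were lower as well (-0.65 ± 0.19 and -0.24 ± 0.071). On the side of OAS1, PTPN11, RPL6 and HECTD4 had log2 fold changes from -0.07 to 0.03 and did not pass. Over all tested genes 12.2% were higher and 12% lower. Each cluster has few neighbours, and whether a region changed as a whole was not tested, here or for the clusters below.

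PARP9, DTX3L and PARP14 lie next to each other on chromosome 3 (122527924 to 122730840, GRCh38) and all 3 rose. DTX3L is a ubiquitin ligase that works in a complex with PARP9, and PARP14 is an ADP-ribosyltransferase. DTX3L stood at 38.2, 37.2 and 39.8 CPM in shATXN7L3 and 31.2, 28.1 and 30.0 CPM in shcontrol (log2 fold change 0.37 ± 0.057, edgeR adjusted p = 6.89e-05). PARP9 stood at 17.9, 18.5 and 18.1 CPM in shATXN7L3 and 15.2, 16.3 and 16.0 CPM in shcontrol (0.20 ± 0.066, edgeR adjusted p = 0.0323). In both genes the groups did not overlap. PARP14 stood at 56.3, 56.3 and 59.3 CPM in shATXN7L3 and 49.2, 51.2 and 54.8 CPM in shcontrol (0.15 ± 0.052, edgeR adjusted p = 0.047), again without overlap.

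DTX3L and PARP9 share 217 exonic bases on opposite strands. If counting ignored strand, which is unknown, a part of their reads cannot be told apart. The PARP9 call ended without any 1 of the shATXN7L3 libraries or without shcontrol replicate 1 (0.0696 to 0.103), with no filter (0.062) and with DESeq2 (0.156). The PARP14 call ended without any 1 of the libraries except shcontrol replicate 3 (0.0867 to 0.199), with no filter (0.0632), with DESeq2 (0.131), and narrowly with DESeq2 size factors (0.0545) or upper-quartile factors (0.0573). Of the 6 nearest tested genes, 3 on each side, 0 were higher and 2 were lower, WDR5B (-0.39 ± 0.093) and DIRC2 (-0.22 ± 0.064), and 4 did not pass. The shares over all tested genes were 12.2% higher and 12% lower.

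**Figure D3:**
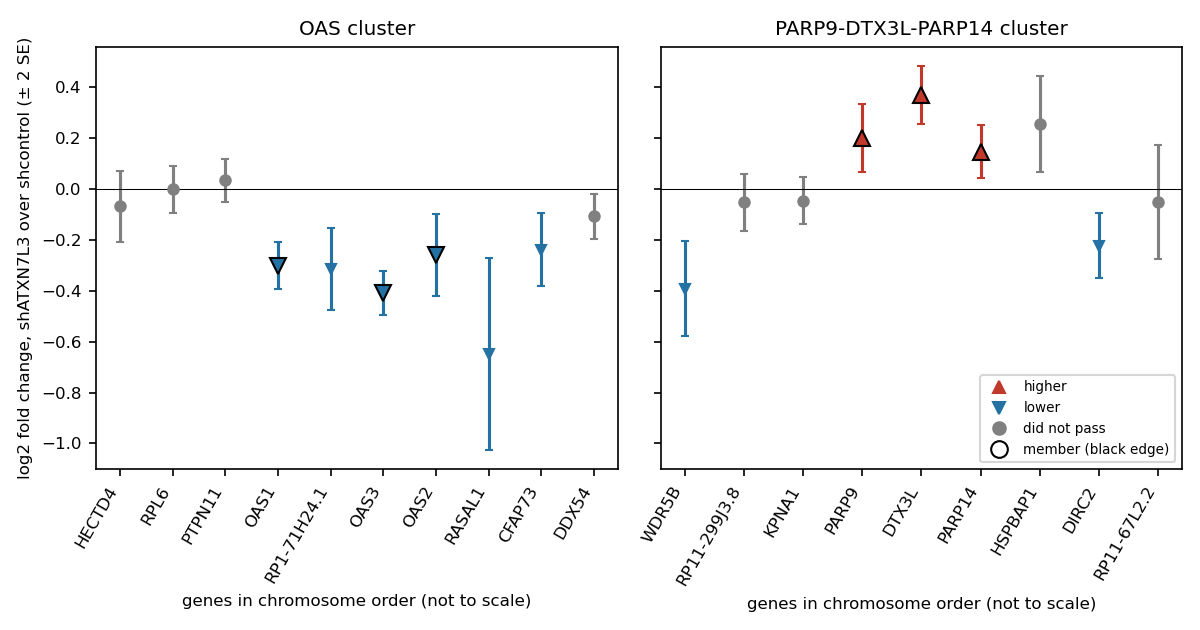
Log2 fold change (shATXN7L3 over shcontrol, ± 2 SE) of the genes of 2 member clusters and their nearest tested neighbours in chromosome order, members with a black edge. OAS1, OAS3 and OAS2 are lower, from -0.41 to -0.26, and PARP9, DTX3L and PARP14 are higher, from 0.15 to 0.37.

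The 3 IFITM genes, which encode small membrane proteins that hinder virus fusion, lie together on chromosome 11 (307631 to 327537, GRCh38) and did not move together. IFITM3 stood at 42.8, 43.1 and 40.6 CPM in shATXN7L3 and 39.8, 35.4 and 34.2 CPM in shcontrol. The groups did not overlap, and its log2 fold change was 0.21 ± 0.059 (edgeR adjusted p = 0.0139). IFITM2 stood at 1.29, 1.83 and 1.26 CPM in shATXN7L3 and 2.00, 2.67 and 2.46 CPM in shcontrol. Every shATXN7L3 library was below every shcontrol library (log2 fold change -0.70 ± 0.20, edgeR adjusted p = 0.0129).

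IFITM1 was too low to test, with 9, 14 and 11 counts in shATXN7L3 and 7, 5 and 8 in shcontrol. IFITM2 shares 34.1% of its 50-base stretches with transcripts of other genes, IFITM1 and IFITM3 foremost, and 22.7% of its exonic bases with IFITM1 on the same strand, so its value is uncertain. For IFITM3 the share of 50-base stretches found elsewhere was 17.4%. The IFITM2 call ended without shATXN7L3 replicate 1 (0.063) or 3 (0.07) or shcontrol replicate 2 (0.068), and the IFITM3 call without shATXN7L3 replicate 1 (0.0597) or 2 (0.0686) or shcontrol replicate 2 (0.0674) or 3 (0.055). Of the 6 nearest tested genes, 3 on each side, 3 were higher, 0 lower and 3 did not pass. The higher ones were ATHL1 (0.73 ± 0.083), ANO9 (0.60 ± 0.096) and PKP3 (0.23 ± 0.083), each with a log2 fold change above that of IFITM3. Over all tested genes 12.2% were higher and 12% lower, and a shared change of this region was not tested.

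SAMD9, an antiviral and growth-restraining protein (chromosome 7, 93099513 to 93118023, minus strand, GRCh38), stood at 36.0, 34.2 and 38.0 CPM in shATXN7L3 and 18.9, 26.4 and 30.7 CPM in shcontrol. The shcontrol libraries were spread widely but stayed below the others, and SAMD9 rose by 0.51 ± 0.105 (edgeR adjusted p = 0.00119). The size depended on shcontrol replicate 1: without it the log2 fold change was 0.34, and without shcontrol replicate 3 it was 0.67, with both past the threshold. With DESeq2 the adjusted p was 0.0607. Its neighbour and paralogue SAMD9L stood at 8.60, 8.80 and 9.33 CPM in shATXN7L3 and 6.67, 9.44 and 8.30 CPM in shcontrol and did not pass (0.13 ± 0.11). Of the 6 nearest tested genes, 0 were higher, 2 were lower, CDK6 (-0.36 ± 0.061) and FAM133B (-0.26 ± 0.065), and 4 did not pass. The shares over all tested genes were 12.2% higher and 12% lower.

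ISG20, an exonuclease that degrades RNA (chromosome 15, 88636153 to 88656483, GRCh38), stood at 3.44, 3.48 and 3.72 CPM in shATXN7L3 and 2.04, 2.90 and 2.55 CPM in shcontrol. The groups did not overlap (log2 fold change 0.51 ± 0.15, edgeR adjusted p = 0.0198). The call ended without shATXN7L3 replicate 3 (0.0735) or shcontrol replicate 1 (0.0916) and with DESeq2 (0.0874). The nuclear body protein SP100 missed the threshold (0.22 ± 0.082, edgeR adjusted p = 0.0587), with 30.9, 28.8 and 33.2 CPM in shATXN7L3 and 22.3, 27.9 and 29.6 CPM in shcontrol, groups that overlap. It passed with library size alone, with no filter, with the replicate block and without shcontrol replicate 3.

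Of the other members that act on double-stranded RNA, ADAR and EIF2AK2 did not pass. ADAR stood at 436, 437 and 434 CPM in shATXN7L3 and 431, 447 and 451 CPM in shcontrol (log2 fold change -0.02 ± 0.041). EIF2AK2 (PKR), the kinase that halts translation, stood at 127, 118 and 125 CPM in shATXN7L3 and 115, 123 and 124 CPM in shcontrol (0.03 ± 0.047). At ± 2 SE these values range from -0.11 to 0.06 for ADAR and from -0.07 to 0.12 for EIF2AK2. The groups overlapped in both genes.

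Of the guanylate-binding proteins, GTPases that act on intracellular pathogens, GBP2 fell and GBP1 did not pass. GBP2 stood at 40.0, 40.7 and 42.6 CPM in shATXN7L3 and 45.9, 47.9 and 43.1 CPM in shcontrol (log2 fold change -0.15 ± 0.054, edgeR adjusted p = 0.0495). The groups were separated by less than 1 CPM. This was the least firm of the calls, and it ended in 10 of the 14 alternatives, among them leaving out any library but shcontrol replicate 3 (0.0584 to 0.213), library size alone (0.152), no filter (0.0707), limma voom (0.0524), the replicate block (0.0615) and DESeq2 (0.114). GBP2 also has 9.89% of its exonic bases in common with GBP7 on the same strand. GBP1 stood at 4.95, 5.06 and 4.27 CPM in shATXN7L3 and 3.64, 4.37 and 3.73 CPM in shcontrol (0.28 ± 0.13, edgeR adjusted p = 0.123). Beside them lies GBP3, a guanylate-binding protein that is not among the 44 and was named after its values were seen. It had 54.3, 54.5 and 52.4 CPM in shATXN7L3 and 35.1, 37.0 and 35.5 CPM in shcontrol. Its groups did not overlap, and it rose (0.58 ± 0.050, edgeR adjusted p = 5.42e-08), the opposite direction to GBP2. GBP1 shares 9.62% of its 50-base stretches with other genes, GBP3 among them.

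The 4 IFIT genes, which lie together on chromosome 10 (89283694 to 89421001, GRCh38), all failed the test. IFIT1 stood at 0.645, 0.747 and 0.879 CPM in shATXN7L3 and 1.38, 0.967 and 1.01 CPM in shcontrol, with the groups apart (-0.56 ± 0.26, edgeR adjusted p = 0.124). IFIT2, IFIT3 and IFIT5 had log2 fold changes from -0.17 to 0.07. Of 7 tested neighbours of the IFIT cluster, FAS (1.64 ± 0.30) and STAMBPL1 (0.99 ± 0.12) were higher, LIPA (-0.44 ± 0.056) was lower and 4 did not pass. The shares over all tested genes were 12.2% higher and 12% lower. ISG15, the ubiquitin-like modifier, had 2.15, 2.32 and 2.26 CPM in shATXN7L3 and 2.53, 2.58 and 1.98 CPM in shcontrol (-0.07 ± 0.17), and HERC6, known as its ligase in mice, had -0.36 ± 0.34. MX1, with 14, 14 and 18 counts in shATXN7L3 and 8, 12 and 12 in shcontrol, IFI6 and IFI35 did not pass either (0.43 ± 0.31, -0.03 ± 0.21 and 0.20 ± 0.087).

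**Figure D4:**
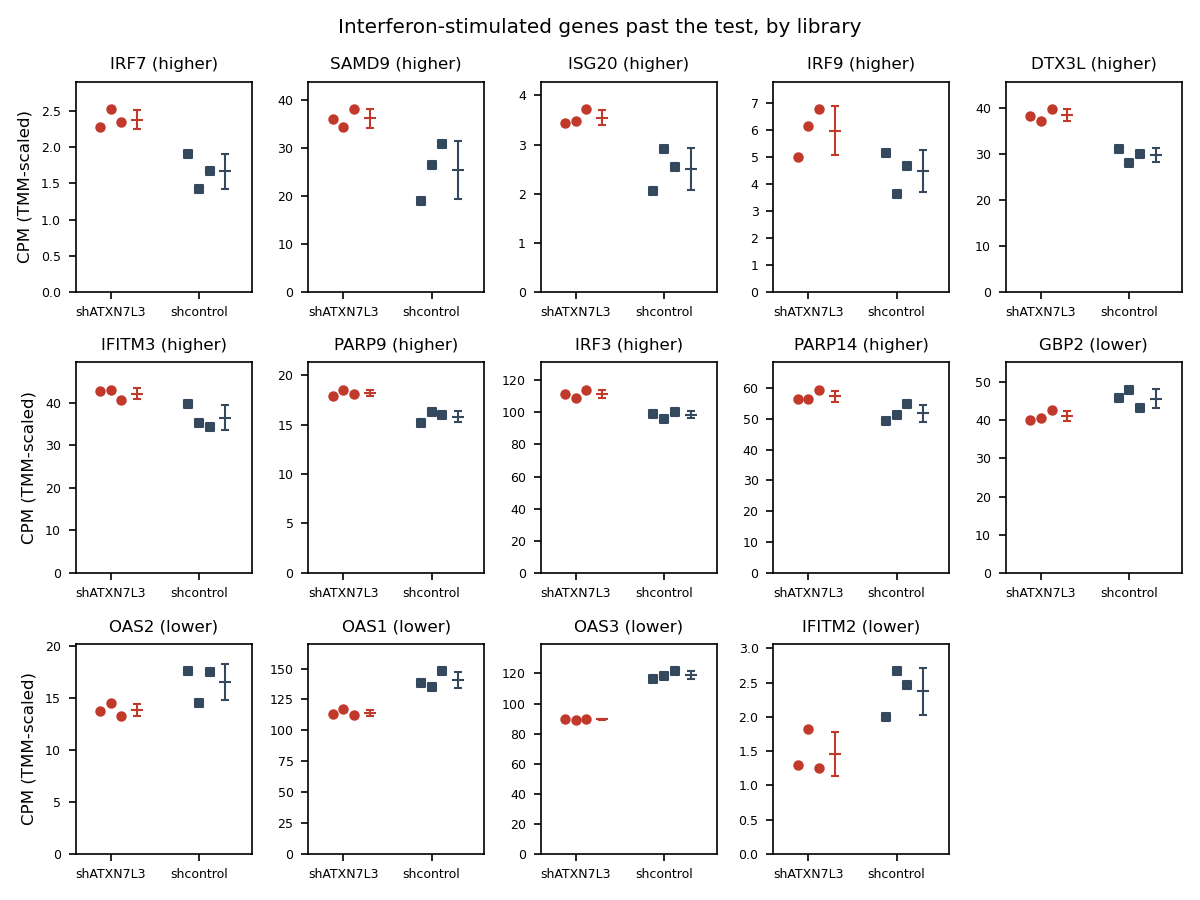
CPM of the 14 called members in each library, shATXN7L3 as circles and shcontrol as squares, with the mean and SD of 3 libraries beside them; every axis starts at 0. Separate groups are seen in 13 genes, and in IRF9 they overlap.

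Upstream and beside these genes, 60 further genes of the pathway were looked up, of which 52 were listed and 44 tested. Of the 44, 8 were higher, 4 lower and 32 did not pass (median log2 fold change 0.04). The called share, 27.3%, was near the 24.2% of all tested genes, so the count as a whole does not set these genes apart. Interferon genes themselves were at or near 0: of 10 ligands looked up, 4 were listed and none passed the filter on low counts. The highest, IFNE, had 6, 4 and 5 counts in shATXN7L3 and 8, 5 and 7 in shcontrol, and IFNA1 had 0 counts in every shATXN7L3 library and 0, 0 and 2 in shcontrol.

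Of 6 receptor chains, 1 fell and 5 did not pass. IFNGR1, the ligand-binding chain for interferon gamma, stood at 69.2, 67.7 and 69.7 CPM in shATXN7L3 and 88.9, 91.9 and 87.4 CPM in shcontrol (log2 fold change -0.38 ± 0.045, edgeR adjusted p = 4.02e-06). The groups were far apart relative to their spread. The receptor chains of type I interferon, IFNAR1 and IFNAR2, had -0.10 ± 0.053 and 0.11 ± 0.061.

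Of 5 kinases and STAT proteins, STAT3 rose, JAK1 fell and 3 did not pass. JAK1, used by all interferon receptors, had 95.4 ± 2.0 CPM in shATXN7L3 and 110.4 ± 4.69 CPM in shcontrol (SD, n = 3 each; log2 fold change -0.21 ± 0.046, edgeR adjusted p = 0.00217). STAT3, which acts mainly downstream of interleukin 6, had 58.3 ± 0.362 CPM in shATXN7L3 and 47.1 ± 1.37 CPM in shcontrol (0.31 ± 0.048, edgeR adjusted p = 7.87e-05).

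Of 4 tested negative regulators, 1 rose. SOCS3, an inhibitor of cytokine receptor signalling, stood at 10.1, 11.2 and 10.9 CPM in shATXN7L3 and 5.38, 4.60 and 4.35 CPM in shcontrol. It had the highest log2 fold change of all members and further pathway genes tested, 1.17 ± 0.10 (edgeR adjusted p = 5.91e-08). SOCS1 was too low to test, and USP18, which removes ISG15 and damps the receptor, had -0.07 ± 0.27.

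Of 10 tested sensing and adaptor genes, IFI16 rose, TBK1 fell and 8 did not pass. IFI16, a nuclear DNA sensor, stood at 56.4, 59.3 and 55.7 CPM in shATXN7L3 and 27.4, 31.4 and 30.9 CPM in shcontrol. The log2 fold change was 0.93 ± 0.058 (edgeR adjusted p = 3.68e-10) and the groups were far apart. TBK1, the kinase that phosphorylates IRF3, had 40.3 ± 1.76 CPM in shATXN7L3 and 45.3 ± 3.13 CPM in shcontrol (SD, n = 3 each; -0.17 ± 0.058, edgeR adjusted p = 0.0412). Its groups overlapped, with shATXN7L3 replicate 1 (42.1 CPM) above shcontrol replicate 1 (41.7 CPM). The TBK1 call ended without any 1 of the libraries except shcontrol replicate 1 (0.0512 to 0.195), with library size alone (0.155) and with DESeq2 (0.0859).

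Of the 3 enzymes that attach ISG15, TRIM25 and UBE2L6 rose. TRIM25, a ligase that also acts on RIG-I, had 78.7 ± 1.80 CPM in shATXN7L3 and 70.3 ± 1.83 CPM in shcontrol (SD, n = 3 each; log2 fold change 0.16 ± 0.046, edgeR adjusted p = 0.0139), and the call ended without shATXN7L3 replicate 3 (0.0838). UBE2L6, the conjugating enzyme, had 2.03 ± 0.289 CPM in shATXN7L3 and 1.30 ± 0.406 CPM in shcontrol (0.64 ± 0.22, edgeR adjusted p = 0.0405). The UBE2L6 call ended without any 1 of the shATXN7L3 libraries or without shcontrol replicate 3 (0.0597 to 0.192) and with DESeq2 (0.129).

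Of 16 tested further stimulated genes, 3 rose, 1 fell and 12 did not pass. SHISA5, a membrane protein of the p53 response, had 50.5 ± 1.02 CPM in shATXN7L3 and 40.7 ± 3.98 CPM in shcontrol (SD, n = 3 each; log2 fold change 0.31 ± 0.061, edgeR adjusted p = 7.37e-04). NMI, which binds IFI35, rose by 0.28 ± 0.074, and the helicase HELZ2 by 0.34 ± 0.11. ZC3HAV1 (ZAP), which binds CpG-rich viral RNA, fell by 0.13 ± 0.044 (edgeR adjusted p = 0.0439). The HELZ2 call ended without shATXN7L3 replicate 2 (0.0517) or 3 (0.14) or shcontrol replicate 2 (0.1) or 3 (0.0899), and the ZC3HAV1 call without any library except shcontrol replicate 1 (0.0623 to 0.169). With DESeq2 the calls of HELZ2 (0.0984), ZC3HAV1 (0.0657) and NMI (0.0585) ended, and that of ZC3HAV1 also with library size alone (0.202), no filter (0.0859) and the replicate block (0.0553).

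**Figure D5:**
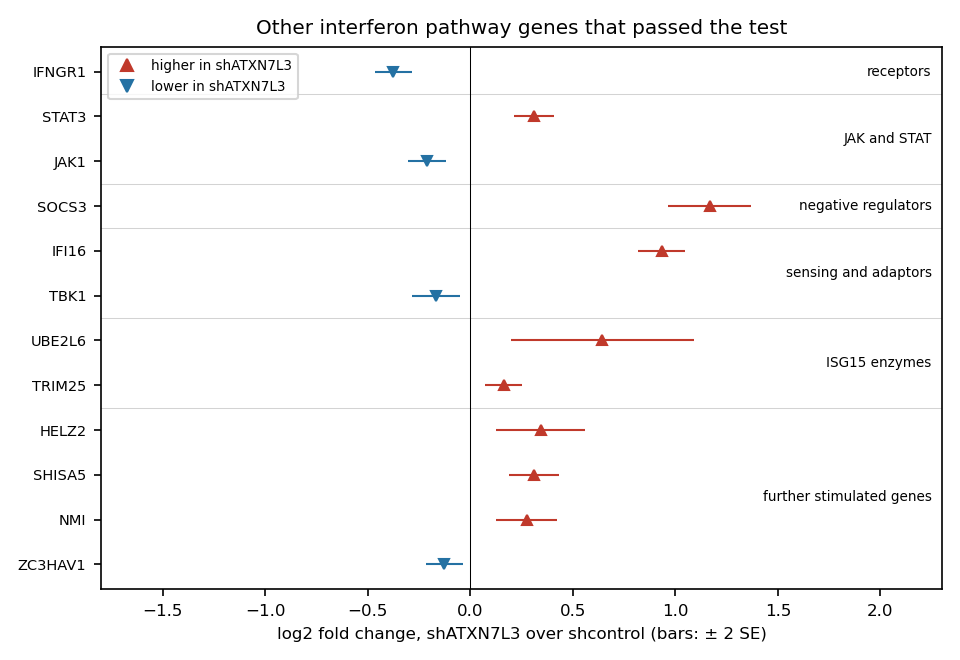
Log2 fold change of the 8 higher and 4 lower further genes of the interferon pathway, shATXN7L3 over shcontrol, with bars of ± 2 SE, by role. SOCS3 (1.17) and IFI16 (0.93) lie farthest to the right, and the 32 genes that did not pass are not drawn.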

How the data were processed

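Raw read counts per gene were deposited by the authors in 1 table, with exon coordinates and lengths. Per the submitters' processing notes, the tools were featureCounts (Subread 1.5.1), STAR 2.5.3a, Trimmomatic 0.36 and edgeR 3.12.1, with GRCh38 as the build. Strandedness, multi-mapping rules and the annotation release were not given in the sources used here.

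Groups follow the labelled treatment; titles give the replicate numbers. Counts were filtered with filterByExpr (minimum count 10, minimum total 15), scaled by TMM and tested in edgeR 4.0.16 (R 4.3.3) by its quasi-likelihood test, with group as the only term. Benjamini-Hochberg adjustment ran over all 17935 genes that passed, with a threshold of 0.05. The SE is the log2 fold change divided by the square root of F, an approximation. TPM used the deposited lengths. Pairs of shATXN7L3 libraries differed by 1.59 to 2.18 in chi-square per gene (1 is sampling noise), and pairs of shcontrol libraries by 3.60 to 6.52. The spread was thus larger among the shcontrol libraries, and no library was treated as a repeat. The procedure was tested on simulated counts.

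The members, gene lists and tests were chosen with earlier results of these data known. Named with values are all called members, uncalled ones among the 10 highest in CPM, and per pathway list up to 4 called genes by p, or 2 by CPM where none passed; others named were chosen after their values were seen, as were the clusters whose neighbours are given. Promoters are from RefSeq; the 5 printed have the highest (3) and lowest (2) log2 fold changes among called members with a window. Shared 50-base stretches and gene types came from GENCODE 29. Alternatives were other scalings, filters and tests (DESeq2 1.42.0, voom of limma 3.58.1), a replicate block, and each library left out. The limit that a count of 0 allows covers counting error only; the SE also holds the spread between libraries.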

Additional observations from a re-analysis of the deposited data

How the results depend on the processing

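ATXN7L3 kept its direction and call under all 14 alternatives. Members higher, 9 in the reported fit, ranged from 4 to 9 and members lower, 5, from 2 to 4 when 1 library was left out. The further pathway genes ranged from 5 to 9 higher and 2 to 4 lower, and all tested genes from 1543 to 2224 higher and 1547 to 2257 lower. With library size alone, which raised the median of all genes from 0.01 to 0.05 on the log2 scale, 11 members were higher and 3 lower, 10 and 2 further pathway genes, and 2955 and 1604 of all tested genes. With DESeq2, 3 members were higher and 3 lower, 5 and 2 further pathway genes, and 1405 and 1603 of all tested genes. The 6 members DESeq2 called, IRF3, OAS1, OAS3, DTX3L, IFITM2 and IFITM3, were all among the 14. Signs reversed in 2 genes that did not pass: ADAR was 0.0191 with library size alone, and EIF2AK2 ranged from -0.0087 (without shcontrol replicate 1) to 0.0582 (without shATXN7L3 replicate 2) when 1 library was left out. Over single named genes, 80 recomputed values lost a call. The causes of lost calls were not tested, except that leaving out a library leaves fewer samples. The replicate block gave 10 members higher (SP100 added) and 4 lower (GBP2 lost), and the call of ZC3HAV1 ended. Same-numbered libraries did not deviate together (correlations -0.02, 0.01 and 0.04, against -0.07 to 0.07 for libraries with different numbers). This gave no sign of pairing by number, but with 3 libraries per group it cannot exclude pairing. Depth limits the 9 members that did not pass the filter on low counts.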
